A study of Mus musculus with 6 samples.

Results

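The genes described here encode small membrane proteins that cross the membrane by 4 segments and belong to the family of peripheral myelin protein 22 (PMP22) or resemble it. They are Pmp22 itself, the epithelial membrane protein genes Emp1, Emp2 and Emp3, the p53 effector gene Perp, the claudin-like gene Tmem47, and Lhfp and its paralogue Lhfpl2. They were listed by name, and each was read from the RefSeq-named probe set with the highest mean over the 6 arrays; all 8 were measured, of 15302 named genes in all. The genes were chosen by protein family, with the measured Sox3-minus-control differences of Pmp22, Lhfp and Perp already known, so the differences of the 8 genes are given as a description and not as a test.

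Gene expression was measured on 6 Affymetrix arrays, 1 per sample, of neural progenitor cells made from mouse embryonic stem (ES) cells. In all samples GFP stood in the Sox1 locus; 3 samples also carried a Sox3 transgene under the Nestin promoter, and 3 control samples did not. Both groups grew as monolayers for 4 days with B27 and N2 supplements and 0.5 µM retinoic acid on days 0 and 2, and were sorted by FACS on day 4. The labels call the samples biological replicates but do not say whether they came from separate cultures, nor whether a genotype was 1 ES cell clone, so the spread measured here may in part be technical, and clone and genotype cannot be told apart.

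PMP22 is a glycoprotein of compact peripheral myelin, and in humans a changed dose of its gene causes inherited neuropathies. It was first found as a gene induced at growth arrest of fibroblasts, and it is made in many cells that form no myelin, among them epithelia and the early nervous system. The epithelial membrane proteins are its nearest relatives. PERP sits in desmosomes and is a transcriptional target of p53 and p63, and the LHFP proteins form a separate branch that resembles claudins in its membrane topology.

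The sequences upstream of the annotated starts are shown first for Pmp22 and Lhfp, which were highest over control, and for a relative of each that was not called: Emp1, a near relative of Pmp22, and Lhfpl2, the paralogue of Lhfp. They are the 250 bases before a start, from RefSeq on GRCm38.p6, written 5′ to 3′ in the direction of the gene. RefSeq windows matched 7 of the 8 genes, with 12 starts, and Perp is named only. Of the genes shown, Pmp22 start 3 (1 E-box and no other match) and Emp1 start 2 (no match) are not printed. Capitals mark each match, on either strand, to ACAAT (the core bound by Sox proteins), CANNTG (the E-box bound by bHLH factors), GGGCGG (the GC box) or CCAAT.
Pmp22 start 1, chr11:63128732-63128981, plus strand: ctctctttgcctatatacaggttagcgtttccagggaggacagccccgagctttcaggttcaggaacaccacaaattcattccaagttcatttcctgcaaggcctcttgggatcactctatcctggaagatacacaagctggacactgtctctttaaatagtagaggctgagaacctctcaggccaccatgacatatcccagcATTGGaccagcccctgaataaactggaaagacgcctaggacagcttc
Pmp22 start 2, chr11:63131207-63131456, plus strand: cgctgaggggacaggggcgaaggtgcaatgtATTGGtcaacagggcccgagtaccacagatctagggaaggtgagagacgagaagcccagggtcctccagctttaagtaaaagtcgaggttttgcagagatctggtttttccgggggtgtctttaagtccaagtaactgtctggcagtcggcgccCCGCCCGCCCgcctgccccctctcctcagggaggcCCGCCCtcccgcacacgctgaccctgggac
Pmp22 start 4, chr11:63132553-63132802, plus strand: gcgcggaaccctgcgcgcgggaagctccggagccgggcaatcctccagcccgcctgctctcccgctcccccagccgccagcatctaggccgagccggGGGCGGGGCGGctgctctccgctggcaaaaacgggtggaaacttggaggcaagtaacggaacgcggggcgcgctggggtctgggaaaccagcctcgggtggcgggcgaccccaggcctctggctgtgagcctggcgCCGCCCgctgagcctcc
Lhfp start 1, chr3:53041297-53041546, plus strand: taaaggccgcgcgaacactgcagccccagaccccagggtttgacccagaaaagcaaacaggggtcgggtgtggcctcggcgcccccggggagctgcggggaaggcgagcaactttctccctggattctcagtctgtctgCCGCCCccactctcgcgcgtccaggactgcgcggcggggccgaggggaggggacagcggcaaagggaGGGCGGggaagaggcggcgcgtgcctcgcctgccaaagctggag
Lhfpl2 start 1, chr13:94057546-94057795, plus strand: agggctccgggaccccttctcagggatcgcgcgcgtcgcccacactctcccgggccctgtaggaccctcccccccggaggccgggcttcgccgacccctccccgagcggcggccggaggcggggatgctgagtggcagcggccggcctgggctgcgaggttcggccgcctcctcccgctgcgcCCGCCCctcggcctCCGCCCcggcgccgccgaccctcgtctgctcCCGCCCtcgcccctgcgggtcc
Emp1 start 1, chr6:135362681-135362930, plus strand: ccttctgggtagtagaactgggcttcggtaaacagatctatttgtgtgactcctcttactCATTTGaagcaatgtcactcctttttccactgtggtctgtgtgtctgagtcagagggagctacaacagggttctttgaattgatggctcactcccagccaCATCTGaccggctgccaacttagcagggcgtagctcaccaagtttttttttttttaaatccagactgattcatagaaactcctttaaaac

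The GC box was found in 6 of the 12 windows, against 32.7% of the 32851 windows of all RefSeq starts. These windows belong to 5 of the 7 genes, and no share by gene was computed over all genes. The box stood 3 times each in the windows of Pmp22 starts 2 and 4, with a pair of overlapping matches in each. It stood in neither of the windows of Pmp22 starts 1 and 3. Lhfp held 2 GC boxes and Lhfpl2 held 3, so the box stood before both the gene that was called and its paralogue that was not. ACAAT was found in 0 of the 12 windows, against 27.7% of all windows, which says only that these letters do not stand in these 250 bases. E-boxes stood in 4 windows, 1 each of Pmp22, Emp1, Emp3 and Tmem47 (66.2% of all windows), and CCAAT in 2, both of Pmp22 (33.8% of all windows). The GC content was 48.8% before Pmp22 start 1, below the median of 52.4% over all windows, and 73.6% before start 4, above the upper quartile of 61.2%; start 3 lay between at 64.8% and its window shares its last bases with that of start 4. It was 69.6% for Lhfp, 80.0% for Lhfpl2 and 44.4% for Emp1 start 1. The array has 1 probe set for Pmp22, so which start was in use in these cells was not measured.

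The arrays were alike in scale. Median log2 signals ran from 6.85 to 6.87, and array pairs correlated at 0.996 to 0.999 within groups and 0.993 to 0.997 between them. Control replicate 3 had the widest interquartile range, 3.17 against 2.89 to 3.02 on the other arrays. Sox3, the over-expressed gene, was at 9.20, 9.23 and 9.22 with the transgene and at 7.59, 7.52 and 7.25 without it, so all 3 transgenic samples exceeded all 3 controls for the gene named in their label; whether the probes match the transgene itself is not stated. Over all named genes, 3.94% passed limma's test at a Benjamini-Hochberg adjusted p under 0.05 (603 of 15302), 1.27% as higher and 2.67% as lower in Sox3 cells. Of the probe sets that passed, 32.2% were higher with the deposited values, 43.4% after quantile normalisation and 44.5% after cyclic loess. All levels below are RMA values on the log2 scale; each difference is the Sox3 mean less the control mean, given with the moderated standard error (SE) and 95% interval of the limma fit, from 3 arrays per group.

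Pmp22, Lhfp and Perp were higher in the Sox3 cells, by 2.09-fold, 1.94-fold and 1.56-fold, while Emp1, Emp2, Emp3, Tmem47 and Lhfpl2 differed by at most 1.11-fold in either direction. The 3 genes past the threshold make 3 of 8, all higher, beside 1.27% of all genes called higher; since this contrast was known when the list was made, nothing is read from that share. Their adjusted p over the whole table lay between 0.00178 and 0.00255, and that of the other 5 between 0.178 and 0.465. The median difference over the 8 genes was 0.14 on the log2 scale, beside 0.00 over all named genes. Of the 8 differences 5 were positive and 3 negative.

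**Figure D1:**
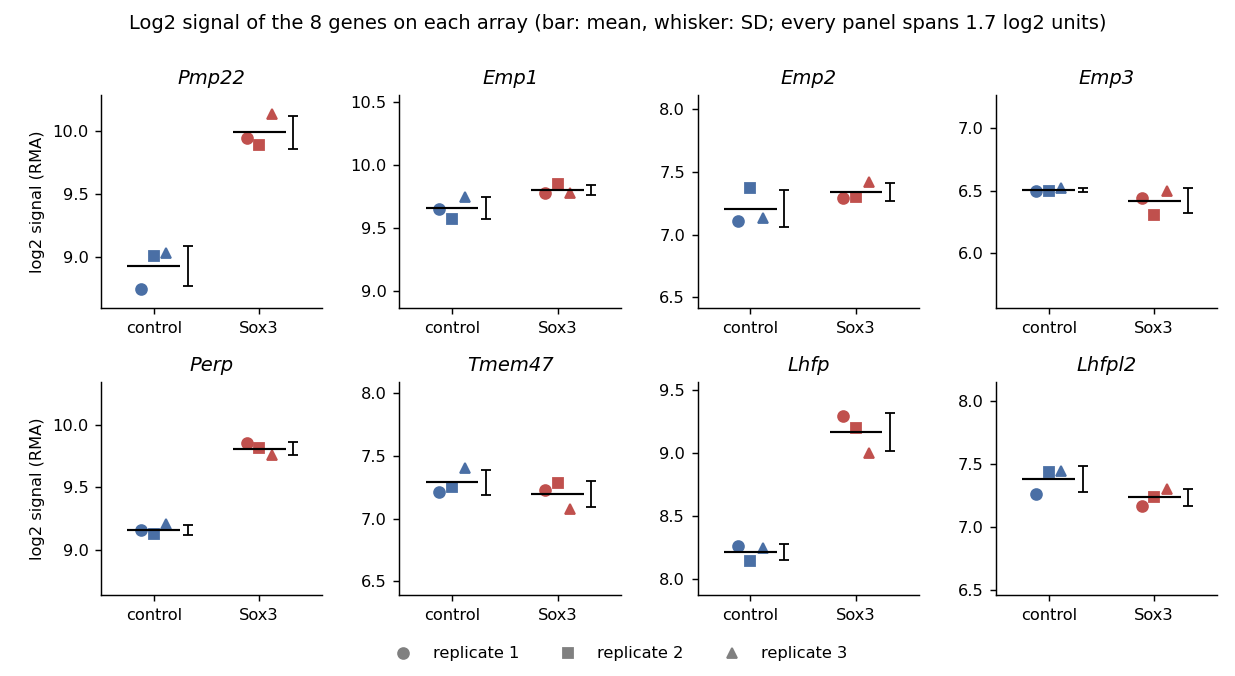
Log2 signal (RMA) of each of the 8 genes on each array, control in blue and Sox3 over-expression in red, with symbols for the replicate numbers, a bar for the mean and a whisker for the SD (n = 3). The control and Sox3 points of Pmp22, Lhfp and Perp stand far apart, those of Emp1 are narrowly apart, and those of Emp2, Emp3, Tmem47 and Lhfpl2 overlap.

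Pmp22 encodes the peripheral myelin protein. Its log2 signal was 9.95, 9.89 and 10.1 in Sox3 replicates 1, 2 and 3 and 8.75, 9.01 and 9.03 in the control replicates. Every Sox3 array lay above every control array, and the gap between the lowest Sox3 and the highest control array was 0.86. The difference was 1.06 ± 0.09 (SE; 95% interval 0.85 to 1.28), which is 1.80-fold to 2.42-fold. Control replicate 1 was the lowest of the control arrays, 0.18 below their mean. Pmp22 ranked 9th of 15302 genes from the highest difference, and its mean signal of 9.46 lay above that of 81.5% of the genes.

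Lhfp, named after a fusion to HMGIC found in a human lipoma, has a little-known function. Its signal was 9.30, 9.20 and 9.01 in the Sox3 replicates and 8.26, 8.14 and 8.24 in the control replicates. The groups did not overlap, with a gap of 0.75. The difference was 0.95 ± 0.08 (SE; 95% interval 0.77 to 1.14), and Lhfp ranked 12th from the highest difference. Among the Sox3 arrays replicate 3 was the highest for Pmp22 and the lowest for Lhfp, with deviations of 0.15 and -0.16 from the group means, so the spread within the group ran in opposite directions for these genes.

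Perp had the smallest spread of the 3. Its signal was 9.86, 9.81 and 9.75 in the Sox3 replicates and 9.16, 9.13 and 9.20 in the control replicates, with SDs of 0.05 and 0.04. The groups were separated by a gap of 0.55, and the difference was 0.65 ± 0.05 (SE; 95% interval 0.53 to 0.76). Perp ranked 29th from the highest difference. With each array left out in turn, the difference ran from 0.97 to 1.12 for Pmp22, from 0.89 to 1.04 for Lhfp and from 0.62 to 0.67 for Perp, and all 3 stayed past the threshold in each of these fits.

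Of the 3 nearest relatives of Pmp22 in the list, 0 were called with the deposited values. Emp1, an epithelial membrane protein gene and the brightest of the 8 at a mean signal percentile of 84.4, was at 9.78, 9.85 and 9.78 in the Sox3 replicates and 9.65, 9.57 and 9.74 in the control replicates. All Sox3 values lay above all control values, but by a gap of 0.03, and 13.1% of all genes showed such a separation upward. The difference of 0.15 ± 0.06 (SE; 95% interval 0.02 to 0.28) was not called with the deposited values and was called after quantile normalisation (0.22, adjusted p = 0.041), cyclic loess (0.23, adjusted p = 0.039) and with array weights (0.22, adjusted p = 0.021).

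Emp2, whose protein acts on integrins at the cell surface, was at 7.29, 7.30 and 7.42 in the Sox3 replicates and 7.11, 7.37 and 7.13 in the control replicates. The groups overlapped because control replicate 2 lay above both lower Sox3 arrays. The difference was 0.13 ± 0.08 (SE; 95% interval -0.05 to 0.32), so a rise of up to 1.24-fold lies within the interval.

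Emp3, the dimmest of the 8 genes at signal percentile 39.5, was at 6.44, 6.31 and 6.50 in the Sox3 replicates and 6.50, 6.49 and 6.52 in the control replicates. Sox3 replicate 3 fell among the control values. The difference was -0.09 ± 0.06 (SE; 95% interval -0.22 to 0.05).

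Tmem47 encodes a claudin-like protein found at cell junctions. It was at 7.23, 7.28 and 7.08 in the Sox3 replicates and 7.21, 7.25 and 7.40 in the control replicates. The groups overlapped, and the difference was -0.09 ± 0.07 (SE; 95% interval -0.26 to 0.08). The deposited values of Tmem47 are identical to those of 1 further probe set that has no symbol here, so the pair cannot be told apart.

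Lhfpl2, the paralogue of Lhfp, which in the mouse is needed for the distal reproductive tract, lay on the other side of 0. It was at 7.17, 7.24 and 7.30 in the Sox3 replicates and 7.26, 7.44 and 7.45 in the control replicates. The groups overlapped by the lowest control array alone, and the difference was -0.15 ± 0.07 (SE; 95% interval -0.30 to 0.00). The intervals of Lhfp and Lhfpl2 do not overlap; the difference between the 2 genes was not tested, since it comes from the contrast by which the list was made.

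**Figure D2:**
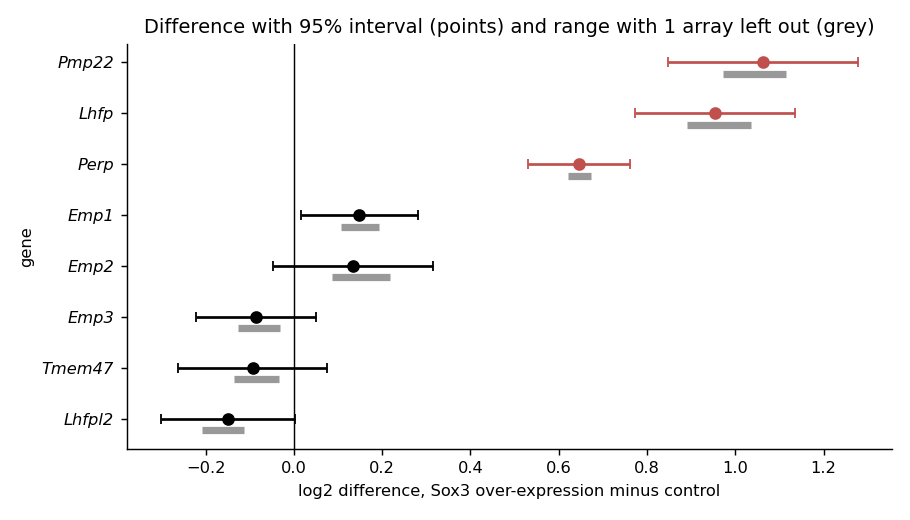
Log2 difference (Sox3 over-expression minus control) of the 8 genes, with points and whiskers for limma's estimate and its 95% interval (n = 3 per group, red where past the threshold) and grey bars for the range over the 6 fits with 1 array left out. Pmp22, Lhfp and Perp lie between 0.65 and 1.06, and the other genes between -0.15 and 0.15.

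The genes that were higher were not the dimmest or brightest of the array. The 3 genes called lay at signal percentiles 71.8 to 81.8, and the other 5 at 39.5 to 84.4. The differences over all genes followed the signal, with decile medians from -0.08 to 0.05. The median was -0.08 in the decile that holds Pmp22, Perp and Emp1, -0.07 in that of Lhfp, -0.02 in that of Emp2, Tmem47 and Lhfpl2, and 0.05 in that of Emp3. Set against the median of its decile, Emp1 lay further above than when set against 0, and Emp3 further below. For dim genes RMA tends to understate differences.

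**Figure D3:**
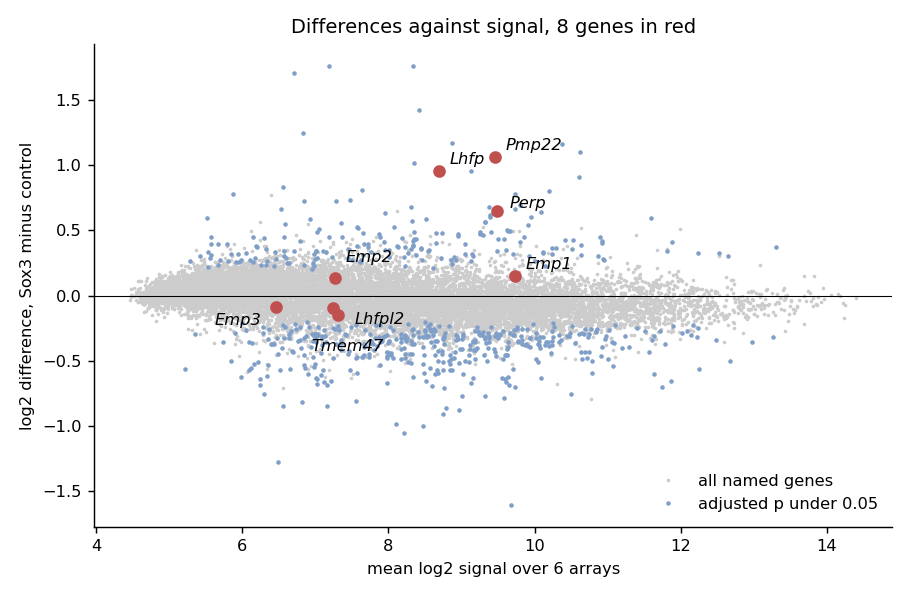
Log2 difference (Sox3 over-expression minus control) against mean log2 signal over 6 arrays for the 15302 named genes in grey, those past the threshold in blue and the 8 genes in red. Pmp22, Lhfp and Perp stand near the upper edge of the cloud and the other 5 genes lie within it.

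The rest of the PMP22 and claudin superfamily held no gene past the threshold. Of 48 listed genes 39 were measured, and 0 passed limma's test at an adjusted p under 0.05, beside 3.94% of all genes. In the same test 5 had an unadjusted p under 0.05, where 23.8% of all genes did. For 11 of the 39 genes every Sox3 array lay above every control array, beside 13.1% of all genes. For 1 every Sox3 array lay below, and no share over all genes is given for that direction. The 13.1% is not matched for signal, and the separations were counted with the deposited values only, so nothing is read from these counts. The differences ran from -0.19 to 0.23 with a median of 0.06, and 27 were positive and 12 negative; after quantile normalisation the median was 0.02, with 22 positive and 17 negative. These genes were mostly dim, with a median signal percentile of 26.7, and 1 of them, Cldn12, reached percentile 88.1. The largest positive difference was that of Cacng2, which encodes stargazin, an auxiliary subunit of AMPA receptors. It was at 6.97, 6.85 and 6.98 in the Sox3 replicates and 6.83, 6.80 and 6.46 in the control replicates, a difference of 0.23 ± 0.10 (SE, limma adjusted p = 0.206). Control replicate 3 was the low array here. Cldn7, a claudin of epithelial tight junctions, had the largest negative difference, -0.19 ± 0.06 (SE, limma adjusted p = 0.123).

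By branch the differences were as follows. Of 20 claudin genes 12 differences were positive, with a median of 0.05 that was 0.01 after quantile normalisation and 0.02 after cyclic loess. Of 9 Cacng and Gsg1 genes 7 were positive, with a median of 0.10 that was 0.06 after quantile normalisation and 0.07 after cyclic loess. The 3 other measured Lhfp-like genes, Lhfpl3, Lhfpl4 and Lhfpl5, had differences from 0.04 to 0.16, of which that of Lhfpl4, a partner of GABA-A receptors, was 0.16 ± 0.06 (SE, limma adjusted p = 0.185); after quantile normalisation and after cyclic loess 2 of the 3 were positive and 1 negative. These 3 are named because they complete the branch of Lhfp. Lim2, a lens fibre membrane protein gene and a close relative of Pmp22, was at 6.58 and 6.45 in Sox3 and control cells (difference 0.13 ± 0.07 SE, limma adjusted p = 0.299), and Nkg7 at 5.73 and 5.72; both are named for their kinship to Pmp22.

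Other families, in which most proteins have the same number of membrane spans, were measured by 55 of 61 listed genes. Of these 0 rose and 2 fell, which is 3.64% beside 3.94% of all genes. Cmtm8, a MARVEL-domain protein gene linked to the turnover of the EGF receptor, was at 7.55, 7.57 and 7.72 in the Sox3 replicates and 7.92, 8.20 and 8.32 in the control replicates, 1.45-fold lower (-0.53 ± 0.10 SE, limma adjusted p = 0.033). The groups did not overlap. Tspan5, a tetraspanin that regulates the protease ADAM10, was 1.18-fold lower (-0.24 ± 0.05 SE, limma adjusted p = 0.043). The Tspan5 call was lost under median centring (adjusted p = 0.055) and in each of the 6 fits that left out 1 array. The Cmtm8 call was lost in 5 of those 6 fits and kept without control replicate 1. Tspan9, a tetraspanin gene named because its call depended on the scaling, differed by 0.19 ± 0.05 (SE, limma adjusted p = 0.067) and was called higher after quantile normalisation (adjusted p = 0.043), cyclic loess (adjusted p = 0.044) and with array weights (adjusted p = 0.049). Of 30 measured tetraspanin genes 12 differences were positive and 18 negative, with a median of -0.01 that was -0.04 after quantile normalisation and after cyclic loess. Of 25 MARVEL, CMTM, physin, gyrin and proteolipid genes 13 were positive and 12 negative, with a median of 0.01 that turned to -0.02 after quantile normalisation and -0.01 after cyclic loess.

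**Figure D4:**
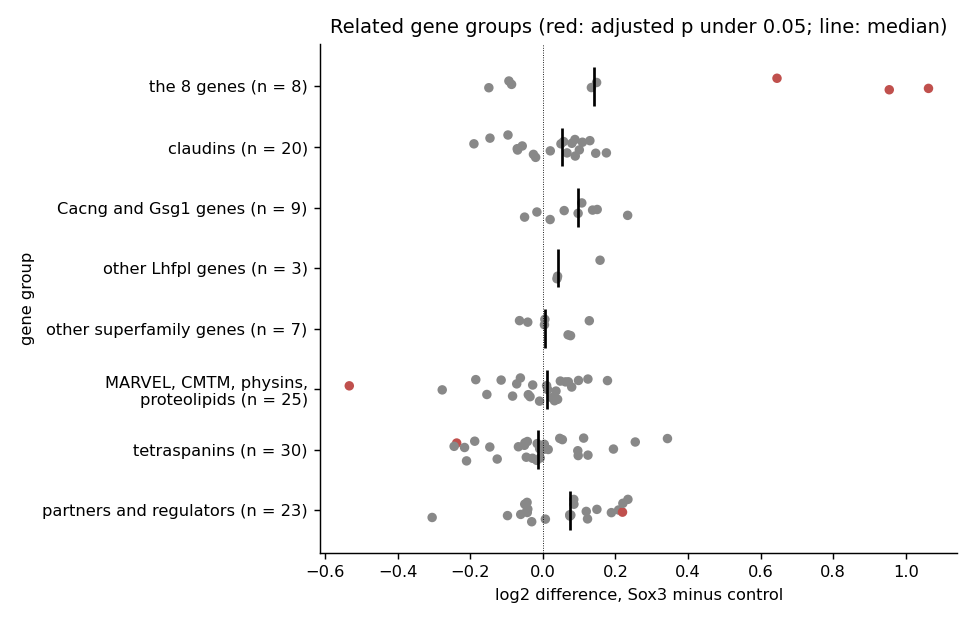
Log2 difference (Sox3 over-expression minus control) of each measured gene in 8 groups, jittered vertically, red where the adjusted p is under 0.05, with a line for the group's median. The red points on the right are Pmp22, Lhfp and Perp, and those on the left are Cmtm8 and Tspan5; the red point of the partners is Cav1.

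Genes known to act with these proteins were listed as partners and regulators. Of 23 measured, 1 rose and 0 fell, which is 4.35% beside 3.94% of all genes. The median difference was 0.07, and 0.04 after quantile normalisation and after cyclic loess. The differences ran from -0.31 to 0.23, with 14 positive and 9 negative. Pkp2, named as the lowest of the list, differed by -0.31 ± 0.08 (SE, limma adjusted p = 0.088). The gene that rose was Cav1, which encodes caveolin 1, a protein whose level EMP2 affects. It was at 5.71, 5.62 and 5.61 in the Sox3 replicates and 5.44, 5.41 and 5.42 in the control replicates (0.22 ± 0.05 SE, limma adjusted p = 0.0493), at the dim end, with a signal percentile of 16.8. The call was lost in all 6 fits with 1 array left out, and after quantile normalisation, median centring and cyclic loess (adjusted p = 0.069, 0.053 and 0.065). Of the regulators of Perp, Trp53 was at 8.64 in Sox3 and 8.42 in control cells (0.22 ± 0.11 SE, limma adjusted p = 0.261) and Trp63 at 5.45 and 5.38 (0.08 ± 0.05 SE, limma adjusted p = 0.397). Egr2, which drives Pmp22 in Schwann cells, was at 5.36 and 5.41 (-0.05 ± 0.05 SE, limma adjusted p = 0.599). Itga6 and Itgb4, the integrin subunits found in a complex with PMP22, differed by 0.21 ± 0.06 and 0.23 ± 0.08 (SE, limma adjusted p = 0.099 and 0.144). These 5 genes are named for their role.

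The 5 genes whose profile over the 6 arrays was most like that of Pmp22 were 1700017B05Rik, Slc51a, Pqlc3, Cnn2 and Glipr2, with Pearson's r from 0.994 to 0.996. Slc51a encodes a subunit of an organic solute transporter and Cnn2 the actin-binding calponin 2. Cnn2 was 2.24-fold higher in the Sox3 cells, and the other 4 genes 1.28-fold to 1.44-fold. Perp correlated with Pmp22 at 0.962 and Lhfp at 0.930, whereas Emp1 stood at 0.768 and Lhfpl2 at -0.574. These values describe 6 points that fall in 2 groups, so a gene that differs between the groups with little spread has a high r whatever else it does. All 5 genes, like Pmp22, were lowest on control replicate 1 and highest on Sox3 replicate 3, as a choice by r favours.

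**Figure D5:**
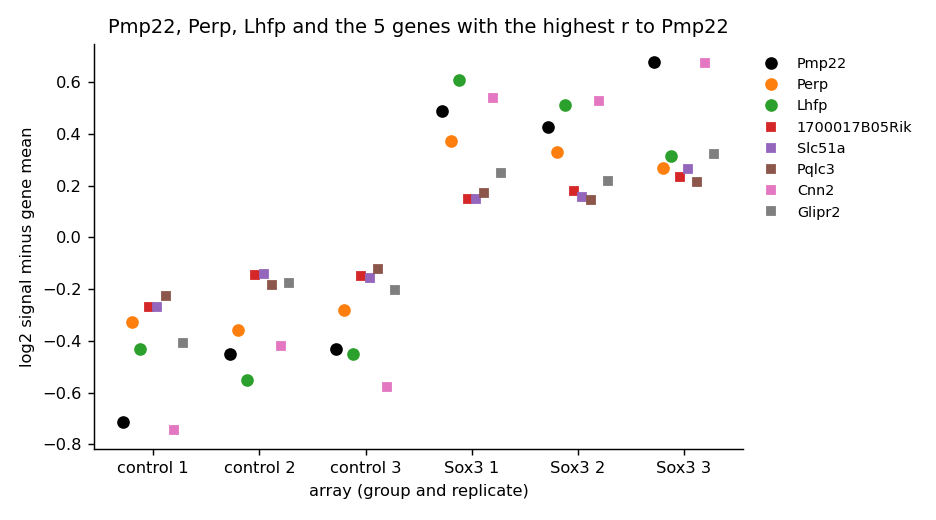
Log2 signal minus the gene's own mean over 6 arrays for Pmp22, Perp and Lhfp (circles) and the 5 genes with the highest r to Pmp22 (squares), by array. On Sox3 replicate 3 the points of Pmp22 and of the 5 genes chosen by r are at their highest, and those of Lhfp and Perp at their lowest of the Sox3 arrays.

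Markers of other cell types were read beside these genes, since Pmp22, Perp and the Emp genes are also made in Schwann cells, mesenchyme and epithelia. In an array of RNA from many cells, a change in the share of such cells and a change per cell cannot be told apart. The cells had been sorted by FACS on day 4, and the sample descriptions name them Sox1+. The gate itself is not described, so which cells it removed cannot be said. Of all genes 1.27% were called higher and 2.67% lower, 3.94% together, and each list's share is set beside that. Of 13 measured Schwann cell and neural crest markers 1 rose (7.69%), Foxd3 (0.36 ± 0.08 SE, limma adjusted p = 0.045), and 0 fell; the Foxd3 call was lost after quantile normalisation (adjusted p = 0.057), after cyclic loess (adjusted p = 0.057) and in 5 of the 6 fits with 1 array left out. Their summed linear signal was 1308 to 1337 on the Sox3 arrays and 1196 to 1229 on the control arrays. Egr2, a member of that list, lay at signal percentile 12.6. Of 14 mesenchyme and smooth muscle markers 2 rose, Tagln and Acta2, and 2 fell, Col1a2 and Col3a1 (28.6% called), with a summed signal of 6831 to 7251 against 5636 to 6405. Tagln differed by 1.43 ± 0.12 and Acta2 by 1.17 ± 0.15 (SE, limma adjusted p = 0.00196 and 0.00804), both more than Pmp22. Col1a2 differed by -0.40 ± 0.05 and Col3a1 by -0.35 ± 0.05 (SE, limma adjusted p = 0.00768 and 0.0153). Of 14 epithelial markers 0 rose and 2 fell, Krt8 and Krt19 (14.3% called). Of the 14 epithelial differences 8 were positive and 6 negative, with a median of 0.07. The summed signal of these markers was 4997 to 5511 against 5247 to 5877. Of 11 neural progenitor markers, which stand for the labelled cell type, Sox3 rose and Sox2 fell (18.2% called). Sox3 is the over-expressed gene, so its rise was set by the design, and the 18.2% counts it. The summed signal of the progenitor markers, with Sox3, was 10009 to 10684 against 10206 to 11292. The Sox2 call was lost after cyclic loess (limma adjusted p = 0.053). Of 12 neuronal markers 0 rose and 1 fell, Nefm (8.33% called), with a summed signal of 2292 to 2454 against 2618 to 2883. The summed signals of the first 2 lists and of the neuronal list did not overlap between the groups. The Schwann cell and neural crest list shares Gap43 with the neuronal list and Fabp7 with the progenitor list; its other 11 genes summed to 926 to 952 on the Sox3 arrays and 902 to 936 on the control arrays, which overlap. The mesenchyme list shares Vim, most of its sum, with the progenitor list. Without its 4 called genes it summed to 5571 to 5799 against 4848 to 5777, which overlap. Without Vim it summed to 2078 to 2427 against 1491 to 1614, which do not overlap. Without Vim and the 4 called genes together it summed to 831 to 876 against 826 to 877, which overlap. The progenitor sum without Vim and Fabp7 was 5175 to 5575 against 5793 to 6312, with no overlap. Sox2, called lower, was the brightest gene in that sum. With Sox2 and Sox3 also left out, the sum was 1655 to 1794 against 1866 to 1942, again with no overlap. Without Sox2 and Sox3 alone it was 6490 to 6904 against 5952 to 6922, which overlap. Of the 11 progenitor differences 6 were positive and 5 negative. In the Schwann cell and neural crest list 11 were positive and 2 negative, and after quantile normalisation 8 and 5. In the mesenchyme list 9 were positive and 5 negative, and after quantile normalisation 6 and 8. Of the 12 neuronal differences 2 were positive and 10 negative, also after quantile normalisation. The neuronal groups stayed apart without Gap43, at 2027 to 2198 against 2388 to 2664. These sums over fewer genes were chosen after seeing the data. The part of the marker lists in the differences of Pmp22, Lhfp and Perp was not tested. With 1 array left out, Tagln, Acta2 and Col1a2 kept their call in all 6 fits, whereas Col3a1, Krt8, Krt19, Sox2 and Nefm kept it in 2 or 3. No detection call came with the values, so whether a marker was absent was not measured.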

How the data were processed

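The deposited table gives log2 values for each probe set on each array. The authors computed them by RMA with Affymetrix Power Tools, as the submitters' processing notes state; per the labels' protocols the arrays are from Affymetrix. Tool versions, the array type and how probe sets were defined are not stated in the sources used here. Of 21940 probe sets 64 array controls were left out. The other 21876 were matched by unversioned accession to a RefSeq gene table (GRCm38.p6): 17123 had 1 symbol and 4753 none. Sox3 and control arrays were fitted with limma 3.58.1 under R 4.3.3 (lmFit, eBayes, two-sided), with Benjamini-Hochberg adjustment over all 21876 probe sets and a threshold of 0.05, without a filter or replicate block; the code was checked on simulated data. Depth does not apply to arrays; 3 per group limit the precision. Alternatives covered normalisation, dim-signal filters, the variance model, array weights, the block, probe set choice, the threshold and leaving out each array. The members and lists were chosen with earlier results of these data known. Named were the 8 genes, Sox3, from each other list up to 4 called genes by smallest p or else the 2 largest differences, and the 5 genes most correlated with Pmp22; exceptions are marked. Arrays of the same number were left unpaired, because the labels name no shared source and their deviations from the group means correlated at 0.29, -0.21 and 0.09. Summed marker signals are sums of 2 to the power of the log2 value.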

Additional observations from a re-analysis of the deposited data

How the results depend on the processing

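All 8 genes kept their direction in each of the alternatives run, 18 per gene and 17 for Emp3, which the filter at the median signal removed. Only the normalisations, the array weights and the omission of an array could change a direction. The signal filters, the variance model, the block and the stricter threshold leave each difference as it was. So does the choice of probe set, since each of the 8 genes had 1. Pmp22, Lhfp and Perp stayed past the threshold in all 18, with adjusted p up to 0.017, 0.019 and 0.016; the only change among the others was that Emp1 passed after quantile normalisation, cyclic loess and with array weights. The replicate block gave 758 probe sets in place of 791 and changed no call among the 8 genes; among the related genes it left 1 four-span gene (Cmtm8) and 0 partners. Probe sets called numbered 2097 with array weights, 150 at an adjusted p under 0.01 and 188 to 475 with 1 array left out. The superfamily count of 0 became 1 after quantile normalisation and 1 after cyclic loess (Cldn7, lower), and 3 with array weights. The count of 2 in the other four-span families became 1 with median centring, 1 with the trend and robust variance model, 3 after quantile normalisation and 3 after cyclic loess (Tspan9 added, higher), 5 with array weights, 0 at an adjusted p under 0.01 and 0 to 1 with 1 array left out. The partner count of 1 became 0 after quantile normalisation, median centring, cyclic loess, both signal filters, the block, the stricter threshold and each omission of an array, and 2 with array weights. The signal filters test fewer genes and the omissions use fewer arrays; the cause of the other changes was not tested. No background estimate limits the dim genes from below.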
